A study of Mus musculus with 4 samples.

Results

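The transcripts of 9 genes that mark B cells were followed through 4 RNA-seq libraries of mouse splenic T cells. The 9 genes were chosen by name, out of 16383 genes in the table, as identity genes of the B lineage, and the choice was made with their values in view, above all those of 1 knockout library that also holds transcripts of other blood cells. The libraries came from CD4+CD25+ cells, a sort that enriches regulatory T cells, taken from spleens of animals aged 7 weeks. Of the libraries, 2 were wild type (WT) and 2 were knockout for Helios, the zinc finger protein encoded by Ikzf2 (Helios KO, Ikzf2-/-). The labels give no strain, no sex and no deleted exon, and they do not say whether each library came from its own mouse, so the spread between libraries of a group may be partly technical. Values are normalised read numbers per kb, taken over the median transcript length of each gene. They can be compared between libraries, and between genes only as far as that length fits the transcripts present. Levels of the 9 genes and differences between single libraries are descriptions, with no test.

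B cells recognise antigen through membrane immunoglobulin, which signals through the paired chains Cd79a and Cd79b. The coreceptor Cr2 lowers the threshold of that signal, Cd22 restrains it, and the adaptor Blnk links the receptor's kinases to calcium release. Ebf1 and Pax5 set up and hold the lineage, Spib is an Ets factor of mature B cells, and Ms4a1 encodes the surface protein CD20. B cells are abundant in the spleen, and a CD4 and CD25 sort is meant to leave them out. Several of the genes are not restricted to B cells: Spib is also made by plasmacytoid dendritic cells, Blnk by macrophages and Cr2 by follicular dendritic cells.

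The sorted cells carried the transcripts of T cells in all 4 libraries. Cd3e, a chain of the T cell receptor complex, was at 32153 and 31262 in the WT libraries and at 31373 and 28901 in those of the knockout. Foxp3, the defining factor of regulatory T cells, was at 37578 and 33448 in the WT libraries and at 41264 and 25224 in those of the knockout. Ikzf2 itself was at 5282 and 7864 in the WT libraries and at 4396 and 3104 in those of the knockout, which is a weak check of the genotype because the lost exons are not known. Recovered read totals lay between 42157139 and 52543073. In Helios KO replicate 2 the summed level of 12 red pulp macrophage genes was 136558, against 8342 to 9466 in the other libraries. That of 12 neutrophil granule genes was 42326, against 588 to 897. In the other libraries a single gene gave much of each sum, Axl with 4612 to 7259 and Mmp9, named after its values were seen, with 550 to 811.

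All 9 genes lie on mouse chromosomes of the mm10 build as protein-coding genes. Cd79a (ENSMUSG00000003379) spans 24897381 to 24902197 on chromosome 7, and Cd79b (ENSMUSG00000040592) spans 106311341 to 106314762 on chromosome 11. Cd22 (ENSMUSG00000030577, 30865402 to 30880342) and Spib (ENSMUSG00000008193, 44525993 to 44532071) also lie on chromosome 7, and Ebf1 (ENSMUSG00000057098, 44617317 to 45008091) on chromosome 11. Ms4a1 (ENSMUSG00000024673, 11249675 to 11266241) and Blnk (ENSMUSG00000061132, 40928927 to 40994535) lie on chromosome 19. Pax5 (ENSMUSG00000014030, 44524757 to 44710487) lies on chromosome 4 and Cr2 (ENSMUSG00000026616, 195136811 to 195176716) on chromosome 1. The libraries do not mark strand, and 761 exonic bases of Pax5 and 479 of Cd22 overlap genes annotated on the other strand, so the values of these 2 genes are uncertain to that extent.

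RefSeq promoter windows (GRCm38.p6, the 250 bases before the start) were found for 7 of the 9 genes. Cd79b and Ms4a1 were not among them, and Ebf1 had 2 windows. The start is the one that belongs to each window, and it can differ from the outer end of the gene span given above. The windows of Cd22, Blnk and Ebf1 lie inside those spans, and that of Cd79a lies partly inside. Each window was searched on both strands for letters linked to B lineage factors. These were the octamer ATTTGCAT bound by Oct factors, the half-site pair CCCNNGGG of the kind bound by Ebf1, and AGGAAGT, which holds the core bound by Ets factors such as Spib. CCCNNGGG is its own reverse complement, and no match overlapped one of another motif. The 30 bases around each match are printed on the gene's strand with the match in capitals, to show which of the genes carry such letters close to their start.
Blnk, octamer, chr19:40994333-40994362, minus strand: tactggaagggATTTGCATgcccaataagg
Blnk, Ets core, chr19:40994405-40994434, minus strand: ttgggacaaacAGGAAGTagtgctcagtca
Cd79a, Ets core, chr7:24897431-24897460, plus strand: cacggctgaacAGGAAGTgaggcggagttt
Cd22, half-site pair, chr7:30879058-30879087, minus strand: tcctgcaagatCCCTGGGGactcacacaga
Spib, half-site pairs, chr7:44532118-44532147, minus strand: cccatggcccgCCCCTGGGGgtaggtaggc

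The octamer was in 1 of the 8 windows, that of Blnk, beginning 130 bases before the start, and in 1.60% of all 32851 windows in the table. The half-site pair was in 2 of the 8 windows, and 11.8% of all windows held it. In Spib 2 such pairs overlap by all but a base at each end. AGGAAGT was in 2 of the 8 windows, and 7.69% of all windows held it. The windows of Cr2, Pax5 and Ebf1 held none of the 3 motifs. A match describes the letters in that window only.

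The signal chains of the B cell receptor were both present in every library, and they did not follow each other. Cd79b was at 1081 and 963 in WT, at 539 in Helios KO replicate 1 and at 1029 in Helios KO replicate 2. Helios KO replicate 1 was thus the low library, and replicate 2 lay between the WT libraries. Cd79a was at 155 and 80.9 in WT, at 129 in Helios KO replicate 1 and at 262 in replicate 2, where it was highest. The level of Cd79a was 0.143 and 0.0840 of that of Cd79b in the WT libraries, and 0.239 and 0.255 of it in the knockout libraries.

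Cd22, the inhibitory lectin of the receptor, was at 620 and 447 in WT, at 274 in Helios KO replicate 1 and at 880 in Helios KO replicate 2. It was the second most abundant of the 9 genes in each library, after Cd79b. The value of Helios KO replicate 1 was 0.515 of the WT mean for Cd22 and 0.528 for Cd79b. The genotype groups overlapped for both genes. In the wider lists Fcmr, which encodes the Fc receptor of IgM and was named after its values were seen, had the library order of Cd79b. It was at 747 and 630 in the WT libraries and at 304 and 707 in those of the knockout.

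Cr2, complement receptor 2, had 3 close libraries and 1 high one. It was at 70.5 and 57.1 in WT, at 65.6 in Helios KO replicate 1 and at 270 in Helios KO replicate 2. The 75, 61 and 57 reads behind the first 3 values have overlapping 95% Poisson intervals, and the 273 reads of Helios KO replicate 2 do not overlap with them. Ms4a1 differed already between the WT libraries. It was at 35.2 in WT replicate 1 and at 8.38 in WT replicate 2, on 113 reads (95% interval 93.1 to 136) and 27 reads (17.8 to 39.3). Helios KO replicate 1 lay between them at 21.0, and Helios KO replicate 2 lay above at 169.

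The adaptor Blnk was at 26.5 and 11.2 in WT, at 12.6 in Helios KO replicate 1 and at 205 in Helios KO replicate 2. The value in Helios KO replicate 2 was 10.9 times the WT mean. Spib was at 104 and 36.2 in WT, at 52.7 in Helios KO replicate 1 and at 425 in Helios KO replicate 2. In that library it stood behind Cd79b and Cd22 alone, ahead of Cr2 and Cd79a, while in WT replicate 2 and in Helios KO replicate 1 both Cr2 and Cd79a lay above it. Both genes had WT replicate 1 above WT replicate 2, by 2.37 times for Blnk and 2.86 times for Spib.

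The lineage-setting factors were the least abundant of the 9 genes in all 4 libraries. Pax5 was at 3.73 and 2.79 in WT, at 10.3 in Helios KO replicate 1 and at 37.3 in Helios KO replicate 2. These values rest on 4, 3, 9 and 38 reads, and the intervals of the first 3 libraries overlap. Ebf1 was at 10.8 and 3.27 in WT, at 1.21 in Helios KO replicate 1 and at 28.7 in Helios KO replicate 2, on 33, 10, 3 and 83 reads. The order of the libraries below Helios KO replicate 2 was therefore not the same for the 2 factors: Pax5 was lowest in WT and Ebf1 in Helios KO replicate 1. Pax5 passed the filter on low values only through the knockout libraries, so it could enter the test only as a gene higher there.

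**Figure D1:**
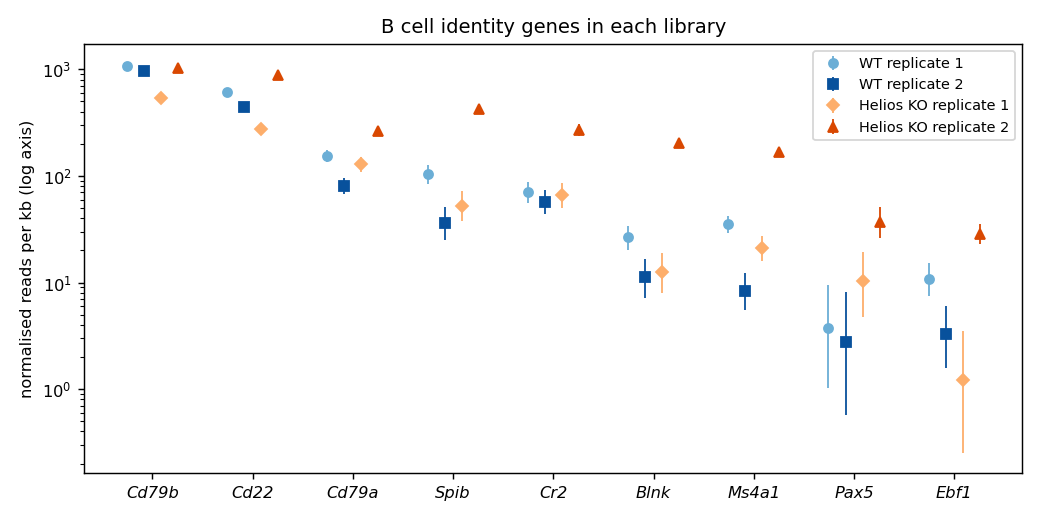
Normalised reads per kb (log axis) of the 9 genes in each of the 4 libraries, with bars for the 95% Poisson interval of the reads, which covers counting error only. Helios KO replicate 2 lies highest for 8 genes, and for Cd79b it lies at 1029 between the WT libraries, while Cd79b and Cd22 are lowest in Helios KO replicate 1.

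Set in order of level, Cd79b and Cd22 led in every library. The order depends on the transcript length used for each gene. In WT replicate 1, Ms4a1 had more reads than Cr2, 113 against 75, and the lower value, 35.2 against 70.5. Cd79a, Spib and Cr2 followed, and their order changed between libraries. In Helios KO replicate 2, Cr2 at 270 (239 to 304) and Cd79a at 262 (237 to 290) had overlapping intervals. Blnk and Ms4a1 also changed places, and in WT replicate 2 their intervals overlapped, at 11.2 (7.22 to 16.5) and 8.38 (5.52 to 12.2). Ebf1 and Pax5 came last.

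The summed level of the 9 genes was 2106 and 1609 in WT, 1106 in Helios KO replicate 1 and 3306 in Helios KO replicate 2. Set against 15 genes of T cell identity, that is 0.424% and 0.353% in WT, 0.215% in Helios KO replicate 1 and 0.714% in Helios KO replicate 2. Cd79b and Cd22 made up 80.8% and 87.6% of the sum in WT, 73.6% in Helios KO replicate 1 and 57.7% in Helios KO replicate 2. The other 7 genes together were at 405 and 200 in WT, 292 in Helios KO replicate 1 and 1397 in Helios KO replicate 2. So with Cd79b and Cd22 in the sum Helios KO replicate 1 was the lowest library, and without them it lay between the WT libraries. In bulk samples of this kind, fewer cells of a type and less RNA per cell cannot be told apart.

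**Figure D2:**
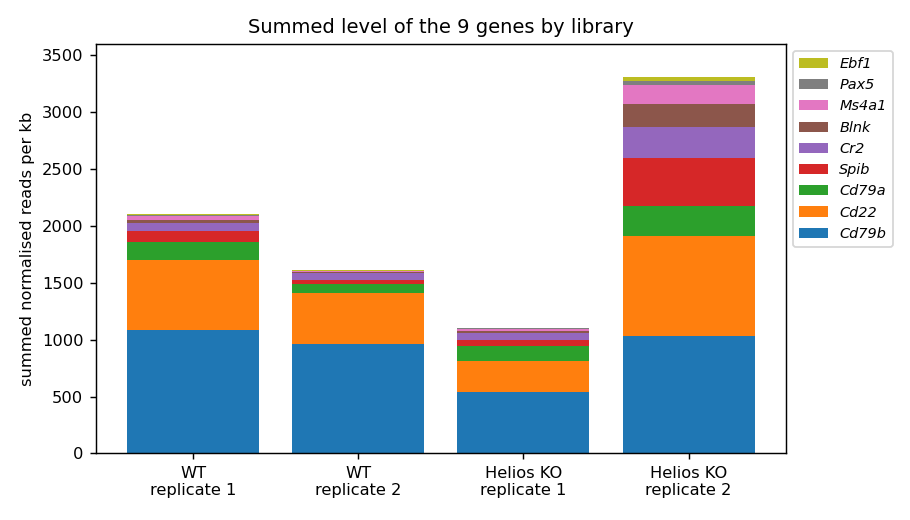
Summed normalised reads per kb of the 9 genes in each library, stacked by gene. Cd79b and Cd22 form most of each bar, from 57.7% in Helios KO replicate 2 to 87.6% in WT replicate 2, and the added height of Helios KO replicate 2 lies mostly in the other 7 genes.

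Relative to the WT mean, Helios KO replicate 2 ranged from the WT level to more than 10 times as much. The ratio was 1.01 for Cd79b, 1.65 for Cd22, 2.22 for Cd79a, 4.07 for Ebf1, 4.24 for Cr2, 6.07 for Spib, 7.75 for Ms4a1, 10.9 for Blnk and 11.5 for Pax5. On the log2(value + 1) scale, which understates the difference of low genes, the median over the 9 genes was 2.07, and over all 11571 genes tested it was 0.00. On that scale 7 of the 9 genes lay at least 2-fold above the WT mean, against 8.27% of genes tested, and 6 were at 2-fold or more of each of the 3 other libraries, against 6.38%. The genes were chosen with this library in view, so nothing is read from these counts.

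Among tested genes, the macrophage, natural killer, neutrophil and erythroid lists had larger median differences in the same library. The lists of plasmacytoid and follicular dendritic cells had smaller ones. The median difference of Helios KO replicate 2 from the WT mean was 4.98 for 12 tested red pulp macrophage genes, 3.27 for 13 natural killer and cytotoxic genes, 9.87 for 5 neutrophil granule genes and 4.55 for 7 erythroid and platelet genes. All of them lay above the WT mean there. The neutrophil proteases Elane and Prtn3 were listed at 0 in the other 3 libraries and were at 1030 and 490 in Helios KO replicate 2. The 7 tested genes of plasmacytoid dendritic cells had a median of 0.19, and 1 of them, Siglech, was at 2-fold or more of every other library, at 137 against 1.56 to 11.6. The others included Bst2 (0.13), Pacsin1 (-0.17) and Ccr9 (-0.22), which T cells also express. Klk1, Cox6a2, Cd300c and Tlr9 of this list did not pass the filter on low values, and the median leaves them out. In Helios KO replicate 2 they were at 28.8, 40.8, 74.6 and 1.71. In the other libraries they were at 0 to 3.74, 1.38 to 2.77, 0 to 4.07 and 0.331 to 2.16. The 5 tested genes of follicular dendritic cells had a median of 1.45. Of these, 4 were at 2-fold or more of every other library, against 6.38% of genes tested, among them Clu at 319 against 4.26 to 27.8. The remaining gene, Madcam1, lay below WT, at 4.99 against 15.0 and 10.2 in the WT libraries. Sox9 and Pdpn of this list did not pass the filter and were at 0 in Helios KO replicate 2. Elane, Prtn3, Siglech, Ccr9, Klk1, Cox6a2, Cd300c, Tlr9, Madcam1, Sox9 and Pdpn were named after their values were seen. T cell identity genes had a median of 0.01 and regulatory T cell genes of -0.16. The part of these other cells in the values of Spib, Blnk and Cr2 was not tested.

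**Figure D3:**
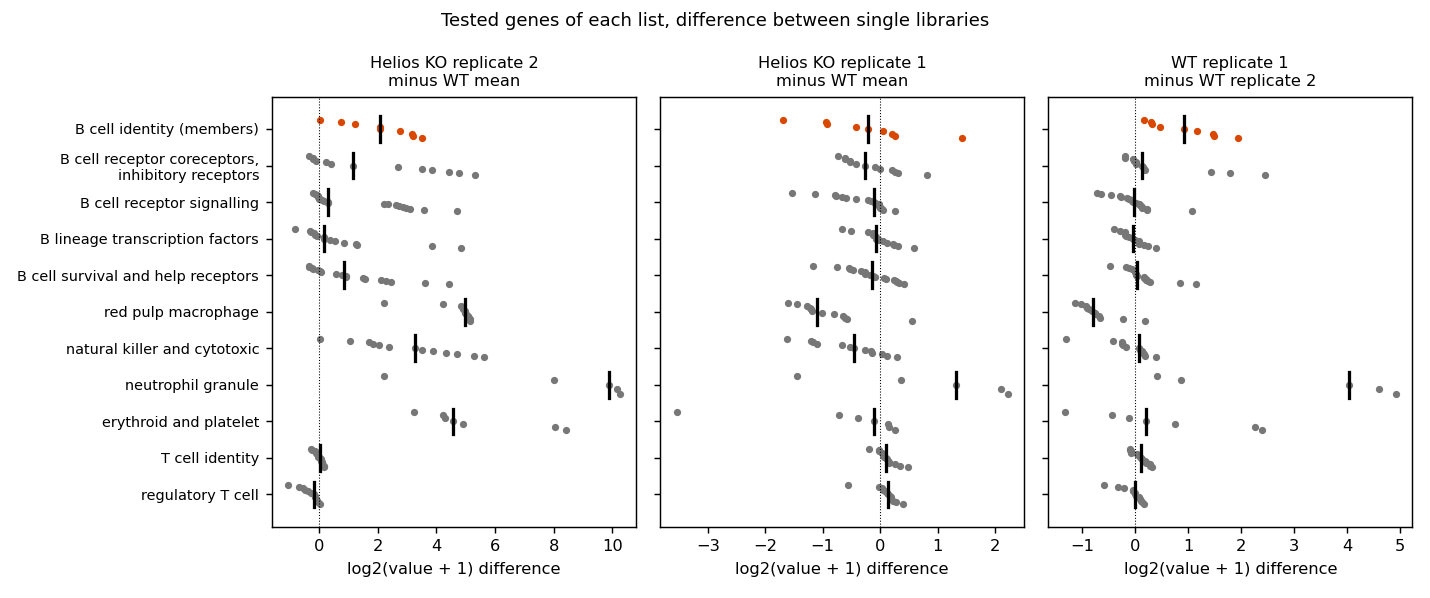
Difference on the log2(value + 1) scale between single libraries for the tested genes of 11 lists, each dot 1 gene and each bar the list median, with the 9 B cell identity genes in orange. In Helios KO replicate 2 the 9 genes have a median of 2.07, below the 4.98 of red pulp macrophage genes, and between the WT libraries they have a median of 0.93, with each of the 9 above 0.

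The WT libraries differed from each other in these genes, a contrast between single libraries of 1 genotype. WT replicate 1 lay above WT replicate 2 for 9 of 9 genes, against 6448 of 11571 genes tested. The median difference was 0.93 on the log2(value + 1) scale, against 0.03 over all genes tested. Ms4a1, Ebf1, Blnk and Spib lay at least 2-fold higher in WT replicate 1, which is 4 of 9 genes against 1.15% of genes tested. Ms4a1 differed most, by 4.20 times, and Cd79b least, by 1.12 times. With 1 library on each side there is no replicate check of this difference.

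Some further B cell genes had the same direction between the WT libraries. Among 13 tested receptor and coreceptor genes, 3 lay at least 2-fold higher in WT replicate 1, Fcrla and Fcrl5 among them. Among 20 receptor signalling genes it was 1, the kinase gene Blk, and among 18 survival and help receptors 1, the low-affinity IgE receptor gene Fcer2a. Among 15 transcription factors it was 0, and over all genes tested 1.15%. The lists as a whole lay near the median of all genes tested, 0.03 on the log2(value + 1) scale. Their medians were 0.13 for receptors and coreceptors, -0.01 for signalling, 0.03 for survival and help receptors and -0.03 for transcription factors. Fcrla, Fcrl5, Blk and Fcer2a were named after their values were seen. Fcrla rests on 15 reads in WT replicate 1 and 2 in WT replicate 2.

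Markers of other lineages did not all share that direction. Of 12 red pulp macrophage genes, 0 lay 2-fold higher and 2 lay 2-fold lower in WT replicate 1, with a median of -0.78, and 2.4% of genes tested lay 2-fold lower. Of 5 tested neutrophil granule genes, with a median of 4.03, 3 lay at least 2-fold higher in WT replicate 1, against 1.15% of genes tested. These were S100a8, S100a9 and Ngp, on 8, 16 and 30 reads in WT replicate 1 and 0 in WT replicate 2. Granule genes scarce outside Helios KO replicate 2 entered the test only where another library passed the filter, so nothing is read from this count. S100a8 was named after its values were seen. The 7 tested erythroid and platelet genes had a median of 0.20. Of these, 2 lay at least 2-fold higher in WT replicate 1, against 1.15% of genes tested, among them the haemoglobin gene Hbb-bs at 492 and 101. In the other direction 1 lay at least 2-fold lower, against 2.4%, Car1 at 6.37 and 17.4 on 8 and 22 reads. The part of these other lineages in the difference between the WT libraries was not tested.

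**Figure D4:**
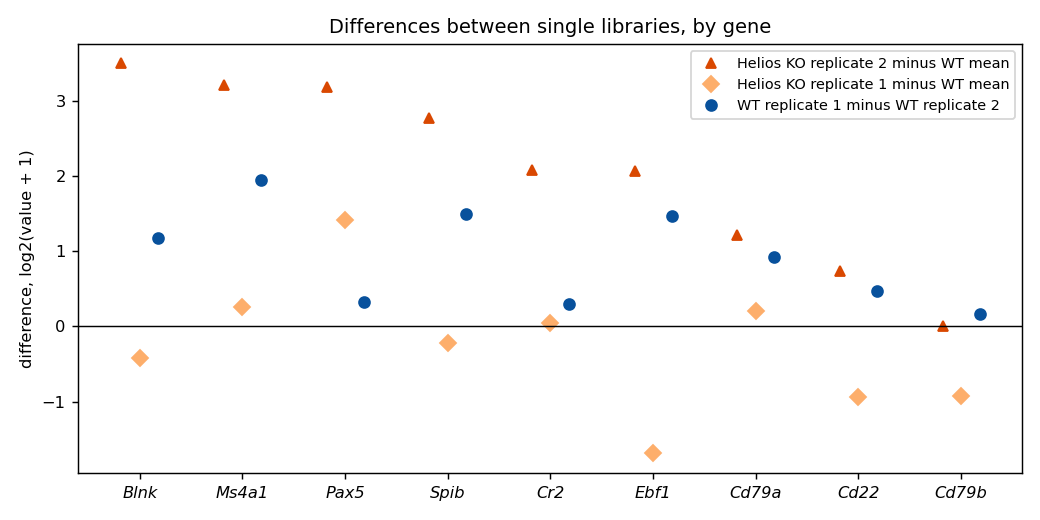
Difference on the log2(value + 1) scale for each of the 9 genes, in Helios KO replicate 2 and Helios KO replicate 1 against the WT mean and between the WT libraries. Blnk is the gene farthest above WT in Helios KO replicate 2, at 3.49, and Cd79b is at 0.012, while Ms4a1 has the widest gap between the WT libraries, at 1.95.

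Helios KO replicate 1 had no common shift of the 9 genes. Its difference from the WT mean on the log2(value + 1) scale had a median of -0.22, against -0.01 over all genes tested. Below the WT mean lay 5 of 9 genes, near the share over all genes, 6197 of 11571 tested. Only Ebf1, on 3 reads, lay at least 2-fold below, which is 1 of 9 genes against 3.45% of genes tested. Cd79b (-0.92) and Cd22 (-0.94) came close to that mark, on 615 and 301 reads. Against WT replicate 1 alone the median of the 9 genes was -0.96, and against WT replicate 2 alone it was 0.20. Red pulp macrophage genes had a median of -1.10 in this library and follicular dendritic cell genes likewise -1.10, and their part in these values was not tested.

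The wider lists of B cell genes hold both genes that were abundant in all 4 libraries and genes that were scarce outside Helios KO replicate 2. Among 13 receptor and coreceptor genes, 6 were there at 2-fold or more of every other library, and 9 of 20 receptor signalling genes, 3 of 15 transcription factors and 7 of 18 survival and help receptors did, against 6.38% of genes tested. The most abundant genes of each list had high levels in all 4 libraries. Cd37, a tetraspanin of lymphocytes, was at 21561 and 21378 in the WT libraries and at 20184 and 18604 in those of the knockout. Ptpn6, the phosphatase recruited by Cd22, was at 56751 and 61634 in the WT libraries and at 58303 and 73534 in those of the knockout, and Pik3cd and Dapp1 were at least at 9661 in each library. Tnfrsf13b, the TACI receptor, was at 8330 to 10559, and Ltb, which encodes lymphotoxin beta, was at 52048 to 64835. Spi1, the Ets factor PU.1 of myeloid and B cells, was at 121 to 122 in WT, at 111 in Helios KO replicate 1 and at 3466 in Helios KO replicate 2. It was named after its values were seen.

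Across genotypes, none of the 9 genes was called. limma, with Benjamini-Hochberg adjustment over 11571 genes, called 0 of 9, against 0% of genes tested, and 386 genes had an unadjusted p under 0.05 (385 in limma-voom, which also called 0). For Cd79b, WT libraries averaged 1022 ± 83.7 and knockout libraries 784 ± 346 (SD, n = 2 per group), and the log2 fold change was -0.45 (SE 0.34). For Cd22 these were 533 ± 122 and 577 ± 429, with a log2 fold change of -0.10 (SE 0.69). Ms4a1 had 1.73 (SE 1.29), Blnk 1.54 (SE 1.53), Spib 1.28 (SE 1.32), Cr2 1.06 (SE 0.73) and Cd79a 0.71 (SE 0.49). Pax5 had 2.30 (SE 0.91), the 1 gene with both knockout libraries above both WT libraries, and Ebf1 had 0.19 (SE 1.47). The adjusted p was 0.9997 for each of the 9 genes in limma. It sets the genotype difference against the spread between libraries, with variances that draw on all genes tested. With n = 2 per group, genes not called are not shown to be unchanged.

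With Helios KO replicate 2 left out, 0 of the 9 genes were called, against 0.277% of genes tested, and the log2 fold changes of Cd79b and Cd22 were -0.92 and -0.94. With Helios KO replicate 1 left out, 2 of the 9 were called, Cr2 (2.07, adjusted p = 0.00707) and Blnk (3.49, adjusted p = 0.00947, both in limma), against 6.4% of genes tested. That fit rests on the library in view when the genes were chosen. In both fits the spread of the lone knockout library is taken from the WT pair.

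The profile of the 9 genes over the 4 libraries was shared by many genes. Likeness was measured as the distance between log2(value + 1) profiles, each centred on its own mean over the 4 libraries, from the median profile of the 9 genes. Among 11571 genes, the nearest outside the 9 were Stard8 (distance 0.129), Ccl22 (0.176), a chemokine gene, Maff (0.260), a small Maf factor gene, Ifitm2 (0.286), an interferon-induced gene, and Tlr3 (0.299), the sensor of double-stranded RNA. Sgms2, Rasa4, Arhgef10l, Tmem88 and Prxl2b followed, up to a distance of 0.383. Stard8 was at 78.5 and 43.1 in the WT libraries and at 48.1 and 326 in those of the knockout. Of the 9 genes Spib was the nearest to their median, at rank 28, followed by Cr2 at rank 44 and Ms4a1 at rank 192. Cd22 stood at rank 423 and Cd79b farthest, at rank 1678.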

How the data were processed

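Per the file headers, each deposited signal value is a normalised read number over the median length, in kb, of the transcripts of its gene. Per the labels' protocols, cDNA was made with a low-input kit that does not mark strand. The build mm10 and bcl2fastq 2.17.1.14 are named in the submitters' processing notes. Aligner and counter: not given in the sources used here. All 16383 genes matched GENCODE M21, and 4425 of its 21951 protein-coding genes, whose identifiers come later than those of the table, were not analysed here, nor were immunoglobulin constant regions.

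Read numbers were recovered from the smallest step of each library and transcript length, and 97.2% of 58026 nonzero values came out whole within 0.01 read. For Cr2 a length of 1000 bases, not the annotated 987, gave whole reads in all 4 libraries. Poisson intervals are exact, at 95%, and cover counting error only, since reads carry no molecular identifiers.

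limma 3.58.1 (R 4.3.3) was fitted to log2(value + 1) across all genes that reached a value of 10 in 2 or more libraries, with genotype as the only term, a variance trend and robust estimation, two-sided, at an adjusted p under 0.05. It was tested on simulated data in which all 4 libraries had the spread of the WT pair. The spread of the knockout pair was not simulated, so nothing is concluded from that test for these libraries. The alternatives were other scalings, pseudocounts and filters, limma-voom on recovered reads, a replicate block, non-robust variances and leaving out each library. Genes and lists were chosen with earlier results of these data known. The genes named are the 9, the 10 nearest profiles, the most abundant genes of each list, checks of the sort, and any gene marked as named after its values were seen. Some genes of the lists are not reported here.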

Additional observations from a re-analysis of the deposited data

How the results depend on the processing

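Of 81 log2 fold changes of the 9 genes under alternatives that kept all 4 libraries (9 settings for each gene), 81 kept their direction and did not pass the threshold, with limma adjusted p of at least 0.998. Those settings called 0 genes in all. The replicate block also called 0 genes, with 335 at an unadjusted p under 0.05. Equal replicate numbers mark no shared mouse or batch in the labels, and deviations of equally numbered libraries correlated at 0.106 over 11571 genes.

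Leaving out single libraries changed more. The count of called genes ran from 0 to 741, at 741 without Helios KO replicate 1 and at 32 when replicate 2 of the knockout was left out. Log2 fold changes ran from -0.92 to 0.012 for Cd79b, -0.94 to 0.74 for Cd22, -1.69 to 2.06 for Ebf1, -0.42 to 3.49 for Blnk and -0.22 to 2.77 for Spib, so the direction of these 5 depended on which knockout library was kept. That of Cd22 and Ebf1 also turned with a WT library, to 0.14 for Cd22 without WT replicate 1 and to -0.55 for Ebf1 without WT replicate 2. The median of the 9 genes against a single WT library ran from -0.96 to 0.20 in Helios KO replicate 1 and from 1.92 to 2.80 in Helios KO replicate 2.

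In recovered reads without length scaling, the summed level as a percent of T cell identity was 0.541 and 0.450 for the WT libraries and 0.271 and 0.930 for those of the knockout. With list medians it was 0.274 and 0.162 in WT, 0.185 in Helios KO replicate 1 and 1.18 in Helios KO replicate 2, so that WT replicate 2 was lowest in place of Helios KO replicate 1. Which library was lowest thus depended on the measure used. Depth limits Pax5 and Ebf1, which rest on 3 to 10 reads in at least 2 libraries each.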

Other observations

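Of 11 tested genes of germinal centre and plasma cells, 5 were in Helios KO replicate 2 at 2-fold or more of every other library, against 6.38% of genes tested, and the median difference from the WT mean was 0.42 on the log2(value + 1) scale. Edem1 (-0.12), of protein degradation in the endoplasmic reticulum, Prdm1 (0.29) and Xbp1 (0.42), factors of plasma cells that T cells also express, were near the WT mean. Jchain, the chain that joins secreted immunoglobulin, was at 73.0 and 134 in WT, at 120 in Helios KO replicate 1 and at 3959 in Helios KO replicate 2. Mzb1, a chaperone of immunoglobulin assembly, was at 7.67 and 6.37 in WT, at 12.5 in Helios KO replicate 1 and at 141 in Helios KO replicate 2. Tnfrsf17, the receptor BCMA of plasma cells, was listed at 1.15 and 0 in WT, at 0 in Helios KO replicate 1 and at 32.8 in Helios KO replicate 2, on 27 reads in the last. Unlike Ms4a1, Jchain was lower in WT replicate 1 than in WT replicate 2. Jchain, Mzb1, Tnfrsf17 and Prdm1 were named after their values were seen, and the differences were not tested.

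The 5 tested genes of B cell precursors had a median of 0.08 in Helios KO replicate 2, with values on both sides of the WT mean. The recombinase genes Rag1 and Rag2 had at most 3 reads in any library. Vpreb1, a surrogate light chain gene, was at 49.4 and 53.9 in WT, at 54.6 in Helios KO replicate 1 and at 23.5 in Helios KO replicate 2, on 31, 34, 28 and 14 reads. Kit, a growth factor receptor gene also of mast cells and progenitors, was at 264 and 324 in WT, at 141 in Helios KO replicate 1 and at 1388 in Helios KO replicate 2. Dntt, the template-independent polymerase gene, was at 80.1 and 53.3 in WT, at 54.4 in Helios KO replicate 1 and at 123 in Helios KO replicate 2. Rag1, Rag2, Vpreb1 and Dntt were named after their values were seen.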
